A study of Mus musculus with 2 samples.

Results

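The 10 genes described here are those of guanylin signalling, the chloride channel gene Cftr and 5 aquaporins: Guca2a, Guca2b, Gucy2c, Prkg2, Cftr, Aqp1, Aqp3, Aqp7, Aqp8 and Aqp11. They were taken by symbol for their roles in fluid secretion and water movement, and all 10 were found among the 24357 named genes of the tables. Messenger RNA was sequenced from epithelial cells of the ileum, which ends the small intestine, of wildtype C57BL/6 mice. The cells were freed with EDTA and sorted by flow cytometry as EpCAM-positive, CD45-negative and 7AAD-negative, that is, as live epithelial cells without leukocytes. The 2 libraries, replicate 1 and replicate 2, form 1 group, with no treatment and no other genotype, and the sources used here do not give the age of the mice.

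Guanylin and uroguanylin are small peptides that gut epithelial cells release into the lumen, where they bind the receptor guanylate cyclase C on the apical membrane of the same epithelium. The receptor makes cyclic GMP, which activates the membrane-bound kinase cGKII. This kinase phosphorylates the anion channel CFTR, so that chloride and bicarbonate leave the cell, and cyclic GMP also restrains sodium uptake by the exchanger NHE3. Bacterial heat-stable enterotoxins cause secretory diarrhoea by acting on the same receptor. Aquaporins are membrane channels for water, and the aquaglyceroporins among them also pass glycerol.

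Values are the authors' deposited FPKM, a fragment level corrected for transcript length and library depth, and ± gives the SD of both libraries (n = 2). The lowest FPKM steps implied about 16100000 fragments in replicate 1 and 26200000 in replicate 2. The libraries were not from 1 animal, since Xist, a transcript of female cells, had 7.91 in replicate 1 and 0.00640 FPKM in replicate 2, while the Y-linked Eif2s3y had 0 and 14.9 FPKM. The labels say no more about how the samples relate, so the spread is that between these libraries. Absorptive enterocyte markers were at or above 1 FPKM throughout in 10 of 10 cases, and they summed to 38416 in replicate 1 and 38130.0 FPKM in replicate 2. Leukocyte markers, led by Lyz2, summed to 10.5 in replicate 1 and 10.7 FPKM in replicate 2. In bulk RNA of sorted cells, a gene at a low level in many cells and one at a high level in few cells cannot be told apart.

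Of the 10 members, 9 had at least 1 FPKM in each library, against 42.3% of all named genes. The exception was Aqp8. The members spanned much of the range of expression, with Guca2b above 99.8% of all named genes in replicate 1 and Aqp8 above 50.1% of them.

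**Figure D1:**
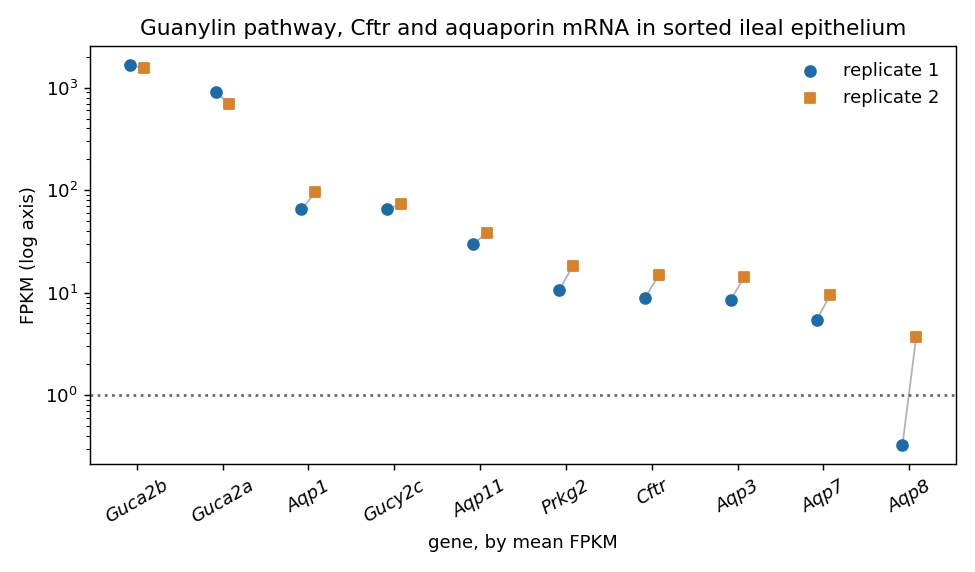
Deposited FPKM (log axis) of the 10 members in replicate 1 (circles) and replicate 2 (squares), ordered by mean, with a dotted line at 1 FPKM. The ligand genes Guca2b and Guca2a stand above all other members in both libraries, and Aqp8 is the only member with a value under 1 FPKM.

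The ligand genes were the most abundant members. Guca2b, which encodes uroguanylin, had 1666 in replicate 1 and 1547 FPKM in replicate 2. Guca2a, which encodes guanylin, had 908 in replicate 1 and 695 FPKM in replicate 2. The uroguanylin values lay above the guanylin values without overlap. The ratio of Guca2a to Guca2b was 0.545 in replicate 1 and 0.449 in replicate 2.

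The ligand genes are neighbours on mouse chromosome 4 in the mm10 assembly, with no annotated gene in the 17135 bases between them. Guca2a runs on the plus strand from 119637704 to 119639471 and Guca2b on the minus strand from 119656607 to 119658954, so they point towards each other. Each has 3 exons, and the transcripts are 594 and 605 bases long. Neither gene shared a 50-base word with the transcripts of another gene. Their promoter windows, from 250 bases before to 50 bases after the RefSeq start in GRCm38.p6, are shown because these 2 genes headed the members and lie side by side. The Guca2b window is chr4:119658896-119659195 on the minus strand and the Guca2a window is chr4:119637482-119637781 on the plus strand, both written 5′ to 3′ along the gene. Capitals mark matches to the motifs searched.
Guca2b: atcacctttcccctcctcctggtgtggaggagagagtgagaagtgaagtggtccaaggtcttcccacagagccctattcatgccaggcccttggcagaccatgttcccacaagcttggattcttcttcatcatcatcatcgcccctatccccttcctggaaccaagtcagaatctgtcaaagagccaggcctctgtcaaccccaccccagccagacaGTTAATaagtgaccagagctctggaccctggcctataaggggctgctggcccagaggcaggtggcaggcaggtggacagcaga
Guca2a: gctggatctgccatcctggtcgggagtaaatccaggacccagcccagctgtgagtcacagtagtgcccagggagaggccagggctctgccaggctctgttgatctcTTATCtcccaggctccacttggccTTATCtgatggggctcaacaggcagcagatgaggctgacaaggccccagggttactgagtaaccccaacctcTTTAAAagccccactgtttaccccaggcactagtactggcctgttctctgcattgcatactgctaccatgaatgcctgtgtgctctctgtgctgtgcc

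For these windows 5 short motifs were searched on both strands. They were TATAAA, the TATA box; TTTAAA, an A/T-rich variant added after the windows were read; GTTAAT, a half-site of the HNF1 factors; GATAA, the core bound by GATA factors; and TTTAT, a core bound by CDX factors. TTTAT on the opposite strand lies within TATAAA, so those matches overlap. The Guca2a window held GATAA on the opposite strand at 144 and 120 bases before the start, and TTTAAA at 48 bases before it. The Guca2b window held GTTAAT at 33 bases before the start. Distances count from the RefSeq starts, 119637732 for Guca2a and 119658945 for Guca2b, which differ from the gene bounds given above. Of 32817 promoter windows of the same length, 25.4% held GATAA, 13.2% held TTTAAA, 7.10% held GTTAAT, 13.6% held TATAAA and 40.0% held TTTAT. These matches describe letters only.

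Gucy2c, which encodes the receptor guanylate cyclase C, had 65.5 in replicate 1 and 72.9 FPKM in replicate 2, a mean of 69.2 ± 5.26 FPKM. Its values sat close together, above 95.6% of all named genes in replicate 1 and 95.8% in replicate 2. Per length, Guca2a exceeded its receptor 13.9-fold in replicate 1 and 9.53-fold in replicate 2, and Guca2b exceeded it 25.4-fold and 21.2-fold. Gucy2c lies on the minus strand of chromosome 6 from 136697284 to 136781765 and has 26 exons.

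Other sources of cyclic GMP were low. Among genes for other guanylate cyclases, natriuretic peptides and their receptors, and nitric oxide synthases, 1 of 15 reached 1 FPKM in each library. Of all named genes, 42.3% did so. The 1 gene was the inducible nitric oxide synthase gene Nos2, with 16.9 in replicate 1 and 10.7 FPKM in replicate 2. Npr1, the receptor for atrial natriuretic peptide, came next with 0.206 and 0.233 FPKM. Nppc and Nppb, both natriuretic peptide genes, were listed at 0 in replicate 1 and at 0.130 and 0.124 FPKM in replicate 2. These values in replicate 2 would rest on about 3 and 2 fragments. The 4 subunit genes of the soluble, nitric oxide-activated cyclase were at most 0.0169 FPKM in either library, and Gucy2d, Gucy2f, Npr2 and Nos3 were listed at 0 in both. Gucy2c thus exceeded every other guanylate cyclase gene of this list in both libraries.

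Prkg2, which encodes cGKII, had 10.5 in replicate 1 and 18.1 FPKM in replicate 2. Its paralog Prkg1, a kinase best known from smooth muscle, was listed at 0 in replicate 1 and at 0.00562 FPKM in replicate 2, under the 0.0694 and 0.0428 FPKM that 3 fragments would give. Such a floor covers counting error alone and uses the approximate depth. Prkg2 lies on the minus strand of chromosome 5 from 98929773 to 99037351 and has 19 exons.

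Genes for cyclic GMP breakdown and export were present at several levels. Together with effector genes, 7 of 21 reached 1 FPKM in each library, against 42.3% of all named genes. The same share applies beside the counts of the lists that follow. Vasp, an actin regulator phosphorylated by these kinases, led with 105 ± 2.40 FPKM. Pde9a, a phosphodiesterase specific for cyclic GMP, had 61.2 in replicate 1 and 53.4 FPKM in replicate 2. Pde6d, a prenyl-binding chaperone, had 10.2 and 16.3 FPKM. Pde5a, the cyclic GMP phosphodiesterase blocked by sildenafil, had 6.40 in replicate 1 and 7.66 FPKM in replicate 2, so that Pde9a exceeded it 9.57-fold and 6.97-fold. Abcc4, a pump for cyclic nucleotides, stayed low at 0.527 ± 0.00573 FPKM.

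Cftr, the channel gene, had 8.83 in replicate 1 and 14.7 FPKM in replicate 2, a mean of 11.8 ± 4.15 FPKM. Per length, Gucy2c exceeded Cftr 7.42-fold in replicate 1 and 4.96-fold in replicate 2. The ratio of Prkg2 to Cftr was close in both libraries, at 1.19 in replicate 1 and 1.23 in replicate 2. Cftr lies on the plus strand of chromosome 6 from 18170687 to 18322768, and the transcript used has 27 exons and 6303 bases. An annotated gene on the opposite strand, Gm15592, overlaps Cftr exons, and 1.07% of the 50-base words of Cftr occur in it. The strand setting of the counting is unknown here, so reads of these genes cannot be told apart in that overlap.

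Scaffold, traffic and regulator genes of CFTR were mostly expressed. Of these genes, which include chaperones, 23 of 25 reached 1 FPKM in each library, against 42.3% of all named genes. Hspa8, the constitutive Hsc70 chaperone, had 619.9 in replicate 1 and 935 FPKM in replicate 2. Slc9a3r1, the scaffold NHERF1 that ties CFTR and NHE3 to ezrin, had 553 in replicate 1 and 498 FPKM in replicate 2. Slc9a3r2, the related scaffold NHERF2, had 0.631 and 0.758 FPKM. Slc9a3r1 thus lay above Slc9a3r2 in both libraries. Pdzk1, another PDZ scaffold of the brush border, had 149 ± 18.4 FPKM, and the brush border motor gene Myo1a had 382 ± 34.5 FPKM. Vamp8, a SNARE of exocytosis, had 261 ± 38.3 FPKM.

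The cyclic AMP arm, the other route to CFTR, was also present. Of its genes, 12 of 22 reached 1 FPKM in each library, against 42.3% of all named genes. They were led by Gnas, the stimulatory G protein subunit, at 193 ± 7.41 FPKM. Vipr1, a receptor for vasoactive intestinal peptide, had 35.8 in replicate 1 and 35.7 FPKM in replicate 2. Prkaca, a catalytic subunit of protein kinase A, had 34.7 ± 1.81 FPKM, and its regulatory subunit gene Prkar1a had 27.8 ± 3.31 FPKM. The prostaglandin receptor gene Ptger4 had 5.45 ± 0.236 FPKM. Receptor genes Ptger2 and Sctr were listed at 0 in both libraries.

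Other genes listed for anion channels, exchangers and modulators of chloride currents reached 1 FPKM in each library in 8 of 12 cases. The side of the cell on which their proteins lie was not measured. Clca1, a secreted goblet cell product that modulates chloride currents, had 865 in replicate 1 and 436 FPKM in replicate 2. Clca4b and Clca4a, of the same family, had 398 ± 23.6 FPKM and 119.7 ± 19.9 FPKM. The exchanger gene Slc26a6 had 105 ± 18.6 FPKM and Slc26a3, the chloride and bicarbonate exchanger DRA, 26.9 ± 3.29 FPKM. Ano1, a calcium-activated chloride channel, had 0.656 in replicate 1 and 0.461 FPKM in replicate 2. It thus lay below Cftr in both libraries, as did Lrrc8a, with 4.80 and 5.30 FPKM. Best1, Best2 and Slc26a9 were listed at 0 in both. Ano6, with 63.1 and 67.7 FPKM, and Clcn2, with 53.9 and 39.9 FPKM, lay above Cftr in both libraries.

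Sodium and bicarbonate transport genes reached 1 FPKM in each library in 9 of 10 cases. Slc9a3, the exchanger NHE3 that cyclic GMP restrains, had 33.3 in replicate 1 and 32.7 FPKM in replicate 2, or 3.77 and 2.23 times the Cftr level. Slc4a2, a chloride and bicarbonate exchanger, had 22.4 ± 1.97 FPKM, and Slc9a2, another sodium and proton exchanger, 21.3 ± 1.11 FPKM. Car4, a membrane carbonic anhydrase, had 19.0 and 7.38 FPKM.

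On the basolateral side, 10 of 12 genes reached 1 FPKM in each library. Atp1b1, the beta subunit of the sodium pump, had 393 ± 49.9 FPKM. Fxyd3, a modulator of the pump, had 64.9 ± 6.03 FPKM. Slc12a2, the cotransporter NKCC1 that loads the cell with chloride, had 22.8 in replicate 1 and 31.1 FPKM in replicate 2. The potassium channel subunits Kcne3, with 43.9 ± 8.35 FPKM, and Kcnq1, with 20.1 ± 2.52 FPKM, which form 1 channel, were both above Cftr in each library.

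**Figure D2:**
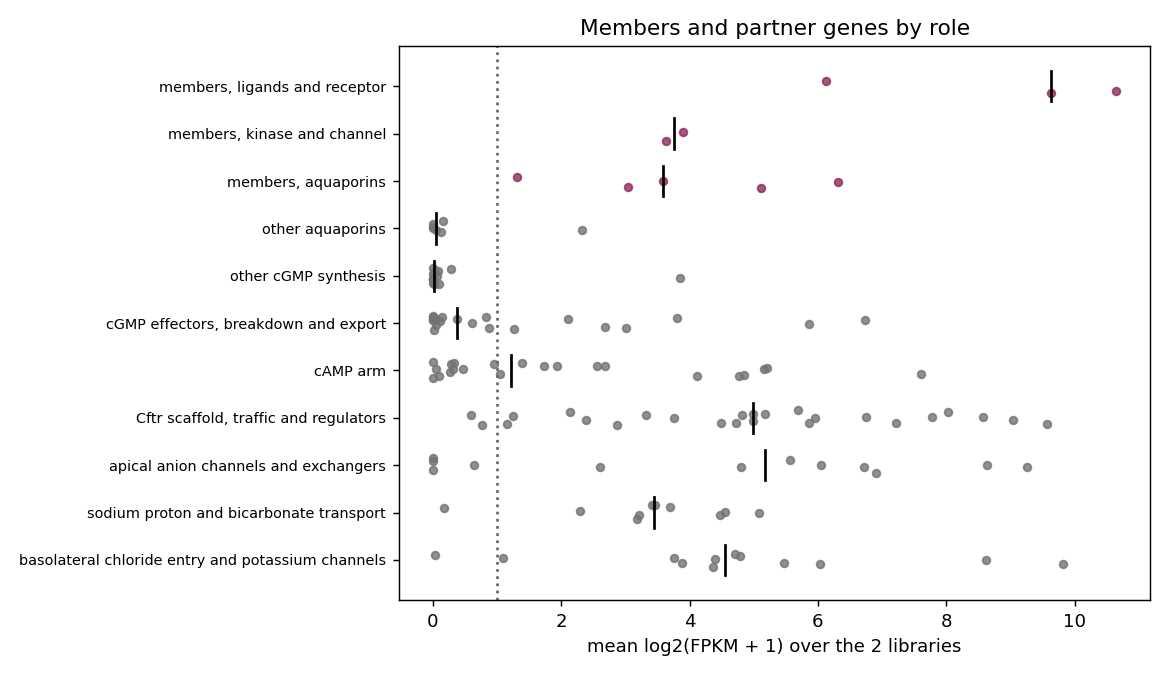
Mean log2(FPKM + 1) over the 2 libraries of each member (coloured) and partner gene (grey) by role, with black bars at list medians and a dotted line at 1 FPKM. The other cyclic GMP synthesis and other aquaporin lists lie at the left edge, apart from Nos2 and Aqp4.

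Of the 12 aquaporin genes listed, 5 reached 1 FPKM in each library: Aqp1, Aqp11, Aqp3, Aqp7 and, outside the members, Aqp4. Aqp1, the classical water channel, had 64.9 in replicate 1 and 95.01 FPKM in replicate 2. Aqp11, a channel of the endoplasmic reticulum, had 29.7 in replicate 1 and 38.3 FPKM in replicate 2. Aqp3, an aquaglyceroporin of basolateral membranes, had 8.54 in replicate 1 and 14.2 FPKM in replicate 2. In these 3 genes the value of replicate 1 was below that of replicate 2.

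Aqp7, the aquaglyceroporin known for glycerol release from fat cells, had 5.42 in replicate 1 and 9.50 FPKM in replicate 2. Aqp8, a channel for water that also passes hydrogen peroxide, had 0.326 in replicate 1 and 3.67 FPKM in replicate 2. With the depth above, Aqp8 would rest on about 7 fragments in replicate 1 and 124 in replicate 2, against 207 and 588 for Aqp7. Of the 10 members, Aqp8 was the one whose values lay farthest apart as a ratio, with replicate 2 at 11.3 times replicate 1.

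Aqp4, a water channel best known from brain, had 3.15 in replicate 1 and 5.02 FPKM in replicate 2. Aqp9, an aquaglyceroporin, had 0.174 and 0.0612 FPKM, Aqp12 had 0.132 and 0.0414 FPKM, and Mip, the lens aquaporin, had 0.0614 and 0 FPKM. By the approximate depth, Aqp9 would rest on about 7 and 4 fragments, Aqp12 on 2 and 1, and Mip on 2 and 0. So few fragments do not establish which library was higher for these genes. Aqp2, the vasopressin-regulated channel of the kidney, Aqp5 and Aqp6 were listed at 0 in both libraries.

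Summed aquaporin FPKM was 112 in replicate 1 and 166 in replicate 2. Aqp1 held 57.8% of it in replicate 1 and 57.3% in replicate 2, and Aqp11 held 26.4% and 23.1%. Aqp3 held 7.60% and 8.59%, and Aqp7 held 4.82% and 5.73%. The share of Aqp8 was 0.290% in replicate 1 and 2.21% in replicate 2. Shares are of FPKM, a per-length RNA level, and not of protein.

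**Figure D3:**
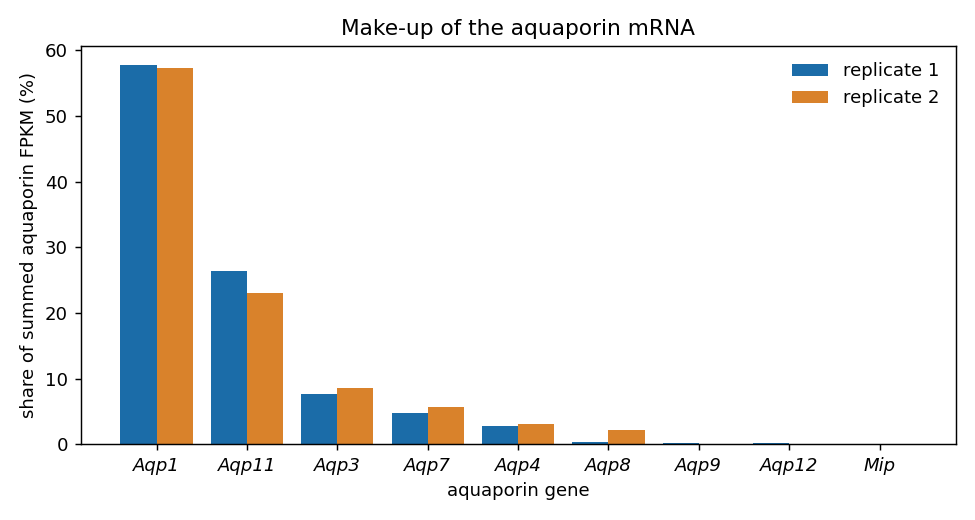
Share of each aquaporin gene in the summed aquaporin FPKM (%), with bars for replicate 1 on the left and replicate 2 on the right; the 3 genes listed at 0 in both libraries are left out. Aqp1 holds 57.8% and 57.3%, and Aqp8 holds 0.290% and 2.21%.

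Aqp1 is also abundant in vascular endothelium and red blood cells, and markers of both were examined beside it. Of the endothelial markers, 0 of 10 reached 1 FPKM in each library, their sum was 1.95 in replicate 1 and 2.04 FPKM in replicate 2, and Cdh5, Kdr, Flt1 and Emcn were listed at 0 in both. The highest of them, Lyve1, had 0.759 and 1.09 FPKM. Of the red blood cell markers listed, 3 of 8 reached 1 FPKM in each library, all of them globins and led by Hbb-b1, with sums of 63.7 in replicate 1 and 52.4 FPKM in replicate 2. Slc4a1, the red cell anion exchanger, was listed at 0 in both, and Alas2, the heme synthesis enzyme of red cells, had 0.174 and 0.172 FPKM. The part of these cells in the level of Aqp1 was not tested. The fat cell markers Adipoq, Plin1 and Lep were listed at 0 beside Aqp7, while Cidec and Pnpla2, also known outside fat, brought that list of 5 to sums of 76.6 in replicate 1 and 65.6 FPKM in replicate 2. The fibroblast and smooth muscle markers, led by the collagen gene Col3a1 with 0.253 and 0.0351 FPKM, summed to 0.453 and 0.265 FPKM.

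In the mm10 assembly, Aqp7 and Aqp3 lie near each other on the minus strand of chromosome 4, from 41033074 to 41048139 and from 41092722 to 41098183. The 44582 bases between them hold 0 annotated protein-coding genes. Aqp1 lies on the plus strand of chromosome 6 from 55336432 to 55348555, Aqp8 on the plus strand of chromosome 7 from 123462291 to 123468004 and Aqp11 on the minus strand of chromosome 7 from 97724006 to 97738289. All 10 members are annotated as protein-coding. Aqp7 shared the most sequence with other genes among them, with 3.87% of its 50-base words, and 6 of the members shared none. The promoter windows of Aqp1, chr6:55336049-55336348, and Aqp8, chr7:123462044-123462343, both on the plus strand, are shown as those of the highest aquaporin and of the member that differed most between the libraries, with the same motifs in capitals.
Aqp1: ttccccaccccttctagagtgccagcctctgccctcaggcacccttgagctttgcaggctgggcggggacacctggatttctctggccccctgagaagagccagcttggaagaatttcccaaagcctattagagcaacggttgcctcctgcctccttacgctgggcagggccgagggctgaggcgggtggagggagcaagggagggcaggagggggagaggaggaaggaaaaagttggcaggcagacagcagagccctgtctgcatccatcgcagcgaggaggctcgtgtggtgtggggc
Aqp8: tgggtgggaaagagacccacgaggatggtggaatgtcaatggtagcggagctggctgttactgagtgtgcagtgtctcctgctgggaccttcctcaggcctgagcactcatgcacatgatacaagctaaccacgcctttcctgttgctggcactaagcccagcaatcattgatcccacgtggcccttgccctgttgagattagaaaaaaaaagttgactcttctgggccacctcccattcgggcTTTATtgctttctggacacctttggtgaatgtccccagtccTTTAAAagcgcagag

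The Aqp1 window held none of the 5 motifs, and its GC content was 62.7%, against a median of 52.7% over all windows. It was placed by the RefSeq start and ends before the gene start at 55336432 given above, so the annotations differ there. The Aqp8 window had a GC content of 52.0% and held TTTAT at 6 bases before the start and TTTAAA at 35 bases after it. Sequences came from RefSeq, where 8 of the 10 members had a window, all but Gucy2c and Prkg2. The Aqp3 window held TATAAA at 29 bases before its start. The Cftr window had the highest GC content of these members at 71.3%, with 31 CG dinucleotides, against 1 in each ligand window.

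By mean FPKM the order was Guca2b, Guca2a, Aqp1, Gucy2c, Aqp11, Prkg2, Cftr, Aqp3, Aqp7 and Aqp8, and 44 of the 45 pairs of members stood in the same order in both libraries. Neighbours were called separated where their values did not overlap and their mean log2(FPKM + 1) differed by more than a limit. The limit was the 95th percentile of the absolute gap between replicates over the 200 genes closest in expression, and the larger of both genes' limits was used. By this rule 5 of 9 neighbouring pairs and 39 of 45 pairs were separated. The same count was not made over pairs of all genes, so these counts have no reference. Guca2b exceeded Guca2a by 1.01 on this scale, against a limit of 0.97, so this step was only just past it. Guca2a exceeded Aqp1 by 3.32, against 0.85. Gucy2c exceeded Aqp11 by 1.01, against 0.58. Below them, Aqp11 exceeded Prkg2 by 1.23, against 0.68, and Aqp7 exceeded Aqp8 by 1.72, against 0.72.

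The other 4 neighbouring pairs were not separated by this rule, which takes no account of both genes being measured in the same library. In 3 of these pairs, Prkg2 and Cftr, Cftr and Aqp3, and Aqp3 and Aqp7, the first gene was the higher one within each library. Aqp1 and Gucy2c differed by 0.18, with a limit of 0.60, and Gucy2c was the higher one in replicate 1. Prkg2, Cftr and Aqp3 stood close together, with steps of 0.26 and 0.04. Aqp3 and Aqp7 differed by 0.55, under the limit of 0.72. No p is given for these steps, because 2 values against 2 allow an exact two-sided permutation test no p smaller than 0.333.

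Between the libraries, both ligands were higher and the other 8 members were lower in replicate 1. Among all genes averaging at least 1 FPKM, 64% were lower in replicate 1, and their median difference, replicate 1 minus replicate 2 in log2(FPKM + 1), was -0.11. The median over the 10 members was -0.61. Against the limit for genes of like level, 4 members were past it, Aqp8, Prkg2, Cftr and Aqp3, all lower in replicate 1, where 2.5% of all those genes were past it in that direction and 2.68% in the other. For Prkg2 this did not hold with a pseudocount of 0.1 or 0.01 or with replicate 2 rescaled. The members were chosen with earlier results of these data known, and these are 2 libraries of 1 group, so the counts describe the libraries.

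Aqp8 differed by -1.82, past its limit of 0.69. Among all genes averaging at least 1 FPKM, 0.566% were lower in replicate 1 by more than 1 on this scale. Prkg2 differed by -0.73 (limit 0.68), Cftr by -0.67 (limit 0.54) and Aqp3 by -0.68 (limit 0.59). Aqp7, at -0.71, stopped just short of its limit of 0.72, and Aqp1, at -0.54, lay within its limit of 0.60. Aqp11 differed by -0.36 and Gucy2c by -0.15. Guca2a, at 0.39, and Guca2b, at 0.11, lay within their limits of 0.85 and 0.97.

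**Figure D4:**
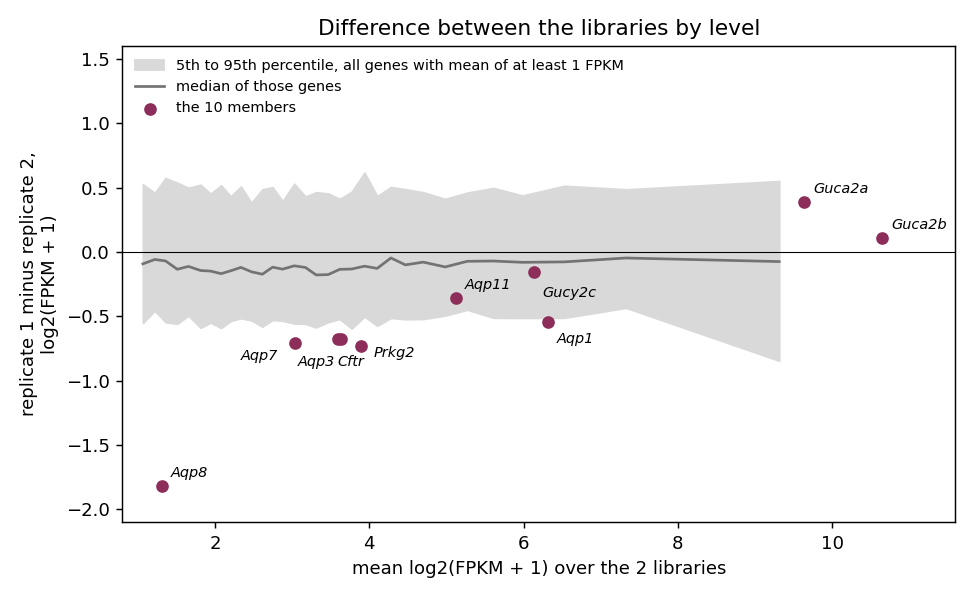
Replicate 1 minus replicate 2 in log2(FPKM + 1) against the mean level for the 10 members, over the 5th to 95th percentile band (grey) and median (line) of all genes averaging at least 1 FPKM; this band is narrower than the limits in the text, which are percentiles of absolute differences. Aqp8 lies at -1.82, and the ligands, at 0.39 and 0.11, are the only members above 0.

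Of 124 partner genes 72 averaged at least 1 FPKM, with a median difference of -0.07, and 31 were higher and 41 lower in replicate 1. Of all genes averaging at least 1 FPKM, 2.68% were past their limits and higher in replicate 1, and 2.5% lower. Among the 72 partner genes, 4 were past theirs and higher, Clca1, Car4, Pde2a and Kcnj13, and 2 lower, Stk39 and Slc4a7. Of these, Car4 differed by 1.25 and Clca1 by 0.99. Pde2a, Kcnj13, Stk39 and Slc4a7 are named here after their values were seen.

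The difference between the libraries also varied with the GC content of transcripts. The median difference was -0.28 over the 20% of genes with the least GC and 0.15 over the 20% with the most. Transcript GC content among the members ran from 41.3% in Cftr to 55.4% in Guca2b. After removal of the trend on transcript length and GC content, with the overall median added back, Aqp8 differed by -1.88, Aqp3 by -0.74, Aqp1 by -0.68, Prkg2 by -0.66 and Cftr by -0.52, and these 5, all lower in replicate 1, were past limits computed in the same way over genes averaging at least 1 FPKM. Of all those genes with a trend value, 2.62% were past it lower in replicate 1 and 2.5% higher. Aqp7 differed by -0.62, which equals its limit of 0.62 in size to the digits given and lay just within it. Aqp11 differed by -0.28, Gucy2c by -0.08, Guca2b by 0.00356 and Guca2a by 0.28.

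**Figure D5:**
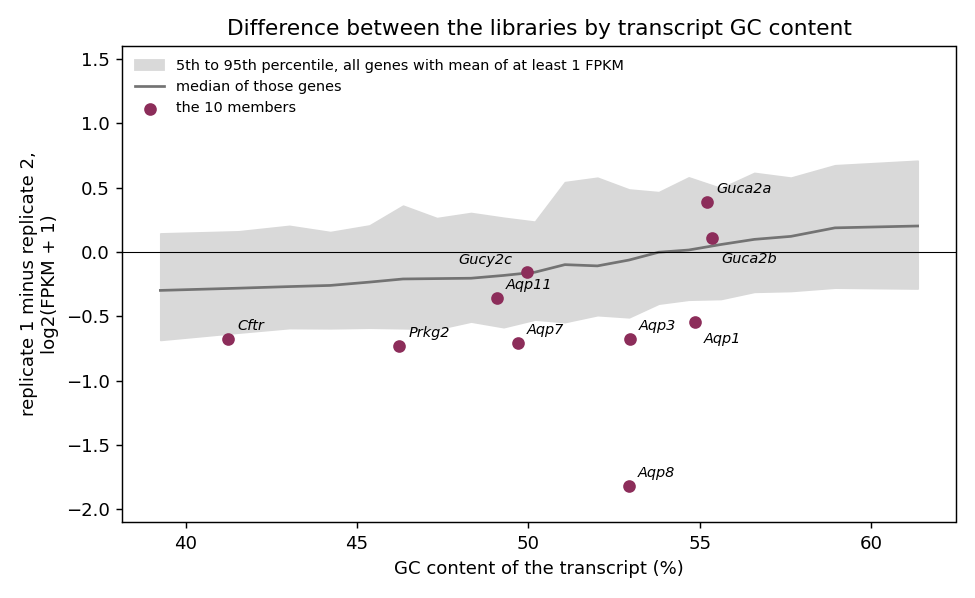
Replicate 1 minus replicate 2 in log2(FPKM + 1) against transcript GC content (%) for the 10 members, over the 5th to 95th percentile band (grey) and median (line) of all genes averaging at least 1 FPKM. The median climbs with GC content, and Aqp8, at -1.82, Aqp3, at -0.68, and Aqp1, at -0.54, lie below the band, as do Prkg2, Aqp7 and, more narrowly, Cftr.

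Cell type markers differed between the libraries too, and their part in these differences was not tested. Counts of direction take markers averaging at least 1 FPKM, and 64% of all such genes were lower in replicate 1. Goblet cell markers, from cells known to make guanylin, stood higher in replicate 1 for 9 of 9, and summed to 43394 in replicate 1 and 21751 FPKM in replicate 2. Tff3, the most abundant of them, had 18660.4 and 8729 FPKM. The ratio of Guca2a to Muc2, the goblet cell mucin, was 2.38 in replicate 1 and 4.88 in replicate 2. Enteroendocrine markers, led by the hormone gene Gip, stood higher in replicate 1 for 8 of 9, the exception being Gip itself with 1144 and 1244 FPKM, and the list summed to 3445 and 2753 FPKM. Tuft cell markers, led by Rgs13, stood higher in replicate 1 for 5 of 5, with sums of 45.8 and 24.0 FPKM.

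Paneth cell markers, led by Defa24, stood lower in replicate 1 for 7 of 7, and summed to 16278 in replicate 1 and 30485 FPKM in replicate 2. Stem and crypt base markers, led by Olfm4, stood lower in replicate 1 for 5 of 6, with sums of 315 and 538 FPKM, and proliferation markers, led by Pcna, did so for 7 of 7, with sums of 147 and 207 FPKM. Cftr is known to be highest in crypts. Of these markers, the goblet cell gene Clca1 and the crypt base gene Slc12a2 also stand among the partner genes. Absorptive enterocyte markers, led by Apoa1, were higher in replicate 1 in 4 and lower in 6 cases. Past their limits and lower in replicate 1 were 1 Paneth, 1 stem and crypt base, 0 proliferation and 0 absorptive enterocyte markers. Past them and higher were 5 goblet cell, 3 enteroendocrine and 3 tuft cell markers. Of all genes averaging at least 1 FPKM, 2.5% were past their limits and lower, and 2.68% higher. None of the markers in these 7 lists was listed at 0 in both libraries.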

How the data were processed

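RNA of sorted ileal epithelium was sequenced in 2 libraries of 1 wildtype group, numbered in accession order. The submitters' processing notes name TopHat2 2.0.14 with Cufflinks 2.2.1 and the build mm10; no source used here gives the annotation, the strand setting or how multiply matching reads were treated. The deposited values are FPKM, 1 per gene symbol and library, and no count model was applied. Of 24384 rows, 27 named by a calendar date were left out. Values were used as log2(FPKM + 1), which understates differences of low genes. Depth came from the commonest worth of 1 fragment among single-transcript genes, with 160 bases taken off each transcript length, and is approximate. An exact 0 can be a failed estimate and is given as listed at 0.

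Limits used the 200 genes nearest in level. The trend on GC content and length was the median in 10 by 5 bins and covered 96.5% of the 10601 genes averaging at least 1 FPKM. Coordinates, lengths and 50-base words came from GENCODE M21 on the same assembly, with promoter windows from RefSeq (GRCm38.p6). The members and lists were chosen with earlier results of these data known. All members and other aquaporins are named, with the 4 highest genes of each partner list, 15 partners named whatever their level, and the highest marker of each list, except 1 gene that is not reported here; other names were chosen after values were seen. No genes of like pattern were sought, since 2 libraries of 1 group give no pattern across conditions. The limit and the trend removal were run on simulated data with noise of equal size for all genes. Success was required only at a shift larger than the member differences reported above, so this does not test the rule for them. Software was Python 3.11.15, numpy 2.4.6, pandas 2.3.3 and matplotlib 3.10.9. The pseudocount, minimum FPKM, number of nearest genes, scaling, trend and libraries were varied.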

Additional observations from a re-analysis of the deposited data

How the results depend on the processing

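The counts of separated pairs kept within 1.5 times of the reported ones with pseudocounts of 0.1 and 0.01, with 100 and 500 nearest genes and with replicate 2 rescaled by the median ratio of 1.10, and so did the counts of members past their limits with these pseudocounts, the rescaling and the removal of the GC and length trend. No difference of a member changed its sign in these settings. Prkg2 was no longer past its limit with pseudocounts of 0.1 (-0.78) and 0.01 (-0.78) or with replicate 2 rescaled (-0.60), and Aqp1 passed it with the trend removed (-0.68); the cause was not tested. The size for Aqp8 was -3.14 and -3.45 with the smaller pseudocounts. With a minimum of 5 FPKM, 0 other aquaporins, 4 cyclic GMP effector, breakdown and export genes and 7 genes of the cyclic AMP arm were counted; with a minimum of 0.1 FPKM, 2 genes of other cyclic GMP synthesis and 11 effector, breakdown and export genes. Over single libraries the ratio of Guca2a to Guca2b was 0.449 to 0.545 and that of Gucy2c to Cftr 4.96 to 7.42. The ratio of Prkg2 to Prkg1 was not formed because Prkg1 was listed at 0 in replicate 1, and separated pairs and differences need both libraries, so they have no value without 1 of them. No paired analysis was possible because there is only 1 group. Depth limits Aqp8 in replicate 1, at about 7 fragments, and genes listed at 0. It also limits other genes resting on few fragments, among them Aqp9, Aqp12, Mip, Nppb and Nppc.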
